A study of Mus musculus with 2 samples.

Results

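The mammalian circadian clock was described in cultured primary mouse brain pericytes (PCs) through 10 of its genes: the activators *Arntl* and *Clock*, the repressors *Per1*, *Per2*, *Per3*, *Cry1*, *Cry2*, *Nr1d1* and *Nr1d2*, and the output gene *Dbp*. All 10 were found by symbol among the 31053 genes counted. They were chosen as clock genes, with earlier results of these data known, and the question asked of them was whether the passage 20 cells richest in *Nr1d1* RNA also differ in the other clock genes. Single-cell RNA-seq was performed in droplets on PCs grown to passage 5 (PC5, 1 library) and on PCs grown to passage 20 (PC20, 1 library). Both cultures came from brains of female wild type C57BL/6N mice, aged 6 to 8 weeks and pooled over 6 animals per isolation. By the methods of the study the 2 passages came from separate isolations, whereas the deposited description names a single set of 6 mice, so the effect of passage and that of isolation cannot be told apart. No treatment and no time of collection within the day was given in the sources used here for either library.

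The clock is a loop of transcription and feedback that runs in most cells of the body. CLOCK and BMAL1, the product of *Arntl*, bind E-box sequences and switch on the *Per* and *Cry* genes, whose proteins then return to inhibit them. The same pair also drives *Nr1d1* and *Nr1d2*, which encode the nuclear receptors REV-ERBα and REV-ERBβ and repress *Arntl*, as well as *Dbp*, which encodes a transcription factor that acts on D-box sequences of output genes. In culture the clocks of single cells drift apart unless a stimulus such as serum or a glucocorticoid sets them together.

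Promoter sequence for 9 of the 10 genes was available from RefSeq on GRCm38.p6, in 13 windows of 300 bases around annotated starts, and *Per2* had no window. Both strands were searched for the E-box CACGTG, the related E′-box CACGTT, the D-box TTANGTAA, and TAGGTCA and TGGGTCA, which are core letters of the element bound by REV-ERB and ROR receptors. The 4 stretches printed here are, in each window, the longest run before the annotated start that lies in no annotated exon. That of *Per1* lies inside the annotated span of the gene (chr11:69095217-69109960 on GRCm38), before a start within that span. The stretches were picked with the levels given further down known. *Nr1d1* is the gene by which PC20 cells are chosen there. *Per1* was high in those cells, while *Per3* and *Cry1* hold clock motifs and were not high. *Dbp* and *Nr1d2* were also high there but held no listed motif and are not printed. Because the stretches were picked in this way, they do not relate motifs to levels. Capitals mark a motif, and AACGTG is CACGTT read from the other strand. Each stretch is written 5′ to 3′ along its gene, for *Nr1d1* chr11:98775378-98775627 (minus strand), for *Per1* chr11:69098699-69098947 (plus strand), for *Per3* chr4:151044666-151044915 (minus strand) and for *Cry1* chr10:85185065-85185304 (minus strand).
Nr1d1: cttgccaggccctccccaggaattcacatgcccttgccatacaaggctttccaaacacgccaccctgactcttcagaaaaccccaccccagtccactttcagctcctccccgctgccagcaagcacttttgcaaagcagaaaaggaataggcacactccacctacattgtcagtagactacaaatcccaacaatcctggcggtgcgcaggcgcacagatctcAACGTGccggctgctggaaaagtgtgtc
Per1: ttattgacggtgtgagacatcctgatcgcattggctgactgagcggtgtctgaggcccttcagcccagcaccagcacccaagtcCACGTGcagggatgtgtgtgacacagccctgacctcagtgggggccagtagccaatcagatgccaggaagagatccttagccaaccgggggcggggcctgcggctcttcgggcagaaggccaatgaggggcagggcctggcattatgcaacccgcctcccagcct
Per3: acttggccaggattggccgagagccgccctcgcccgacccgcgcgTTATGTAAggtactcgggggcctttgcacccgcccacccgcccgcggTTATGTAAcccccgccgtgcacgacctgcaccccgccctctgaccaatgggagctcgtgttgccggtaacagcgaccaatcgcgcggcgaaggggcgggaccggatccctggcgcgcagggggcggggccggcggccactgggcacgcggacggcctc
Cry1: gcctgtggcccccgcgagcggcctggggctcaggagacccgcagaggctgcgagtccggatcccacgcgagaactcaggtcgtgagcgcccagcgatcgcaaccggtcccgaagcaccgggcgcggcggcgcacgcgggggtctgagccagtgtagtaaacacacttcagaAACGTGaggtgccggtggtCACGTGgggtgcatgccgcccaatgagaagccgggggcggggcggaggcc
Positions are counted from -1, the base before the first transcribed base. The *Nr1d1* stretch held 1 E′-box starting at -28. The *Per1* stretch held 1 E-box at -166. *Cry1* held an E′-box at -79 and an E-box at -60, and *Per3* held D-boxes at -205 and -158. Elsewhere, *Cry2* held an E′-box at -166 and 1 of the windows of *Arntl* held TAGGTCA at 30 bases past the start. No listed motif was present in these windows of *Nr1d2*, *Clock* and *Dbp*, which says only that the letters are absent from the windows searched. Of all 32851 promoter windows, 7.15% held CACGTG, 4.68% CACGTT, 2.32% TTANGTAA, 2.61% TAGGTCA and 3.98% TGGGTCA.

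The genes were read in cells that had over 1000 genes detected and below 20% of their UMIs (unique molecular identifiers, which count captured RNA molecules) from mitochondrial genes. This filter left 9950 of 10629 barcodes in PC5 and 4749 of 4884 in PC20. The kept cells had a median of 21700 UMIs in PC5 and 33424 in PC20, and 20 barcodes occurred in both libraries. Levels are given as CPM, the UMIs of a gene summed over cells and scaled to a library total of 1000000. Intervals in brackets are 95% intervals that cover counting error only, because 1 library per passage gives no replicate spread and no test between passages was possible. For shares of cells and for comparisons between cells, each cell was thinned to 10500 UMIs, which kept 8847 PC5 and 4474 PC20 cells and left out 1103 and 275 shallower ones. Of the PC markers, *Pdgfrb* was at 44.6 CPM in PC5 against 5.43 CPM in PC20, *Cspg4* at 5.55 and 0.099, *Anpep* at 1.93 and 3.00, *Rgs5* at 1.82 and 0, and *Abcc9* had 1 UMI in each library. The names PC5 and PC20 therefore follow the labels of the cultures rather than these markers. Of fibroblast markers, *Pdgfra* was at 88.6 CPM in PC5 against 0.13 CPM in PC20 and *Lum* at 3.57 and 0. *Dcn* was at 51.3 and 0.17, and *Col3a1* at 1158 and 101. Of smooth muscle markers, *Acta2* was at 62.8 CPM in PC5 against 49.2 CPM in PC20 and *Tagln* at 219 and 0.23. *Myh11* was at 0.21 and 0.068, and *Cnn1* at 0.73 and 0.10. The part of these differences in the clock gene values was not tested. Among 10 genes of lineages not cultured, the highest share of thinned cells with a UMI was 2.39% in PC5 and 0.402% in PC20, both for *Cx3cr1*.

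Most of the clock genes were higher in PC20 than in PC5, with *Dbp*, *Per2* and *Nr1d1* the farthest apart, whereas *Arntl* and *Cry2* were higher in PC5. Of the 10 genes, 6 were more than 2-fold higher in PC20 and 0 more than 2-fold higher in PC5. In cells without *Mki67* or *Top2a* UMIs the number was also 6 but the genes differed, since *Arntl* passed 2-fold toward PC5 there and *Cry1* no longer passed it. Among all 11469 genes with a UMI in at least 5% of cells of either library, 38.6% were past 2-fold either way and 19.3% were past it toward PC20. The median log2 ratio of PC5 over PC20 was -1.06 over the clock genes and -0.01 over all genes.

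The activators differed in opposite directions. *Arntl* was at 17.3 CPM in PC5 (16.8 to 17.9) and 9.68 CPM in PC20 (9.25 to 10.1), a 1.79-fold higher level in PC5 (1.69 to 1.89). *Clock* was at 24.5 CPM in PC5 against 37.0 CPM in PC20, 1.51-fold higher in PC20 (1.46 to 1.57). Neither passed 2-fold over all kept cells, while in cells without *Mki67* or *Top2a* UMIs *Arntl* had a log2 ratio of 1.11 (0.93 to 1.29).

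Of the *Per* genes, *Per1* was at 15.8 CPM in PC5 against 28.2 CPM in PC20, 1.78-fold higher in PC20 (1.71 to 1.86). *Per2* was the scarcest of the 10 in both libraries by UMIs, at 0.64 CPM in PC5 against 4.35 CPM in PC20, a 6.83-fold difference (5.71 to 8.22). Its share of thinned cells with a UMI was 0.69% in PC5, below the 2.39% of *Cx3cr1* but above the other 9 genes of lineages not cultured, which reached at most 0.102% (*Cd79a*). In PC20 its share was 4.00%, above all 10 of those genes. How much of the PC5 level of *Per2* is background is thus not settled, and any background in it would make the ratio a lower bound. *Per3* was at 5.43 CPM in PC5 against 11.9 CPM in PC20, 2.18-fold higher in PC20 (2.04 to 2.34). All 3 *Per* genes were higher in PC20, *Per2* with that limit.

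The cryptochromes, the partners of PER proteins in repression, were split. *Cry1* was at 6.04 CPM in PC5 against 12.1 CPM in PC20, and its 2.00-fold higher level in PC20 lay on the 2-fold mark (1.87 to 2.14). *Cry2* was at 17.5 CPM in PC5 against 11.9 CPM in PC20, 1.47-fold higher in PC5 (1.40 to 1.55).

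Both REV-ERB genes and *Dbp* were higher in PC20. *Nr1d1* was at 9.63 CPM in PC5 against 60.2 CPM in PC20, a 6.26-fold difference (5.97 to 6.55). *Nr1d2* was at 9.73 CPM and 31.2 CPM, a 3.20-fold difference (3.05 to 3.37). *Dbp* was at 6.29 CPM and 55.8 CPM, an 8.87-fold difference (8.39 to 9.38), and was seen in 6.75% of thinned PC5 cells against 38.1% of thinned PC20 cells. The corresponding shares for *Nr1d1* were 9.04% and 33.7%, so the difference was present at equal depth. Genes of the cell cycle also stood higher in PC20, with 8 of 16 listed past 2-fold toward PC20 and 1 toward PC5. Of all genes, 19.3% were past 2-fold toward PC20 and 38.6% either way. The part of the cell cycle in the clock gene values was not tested beyond the cells without *Mki67* or *Top2a* UMIs. In those cells *Nr1d1* had a log2 ratio of -2.57 and *Dbp* of -3.28.

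**Figure D1:**
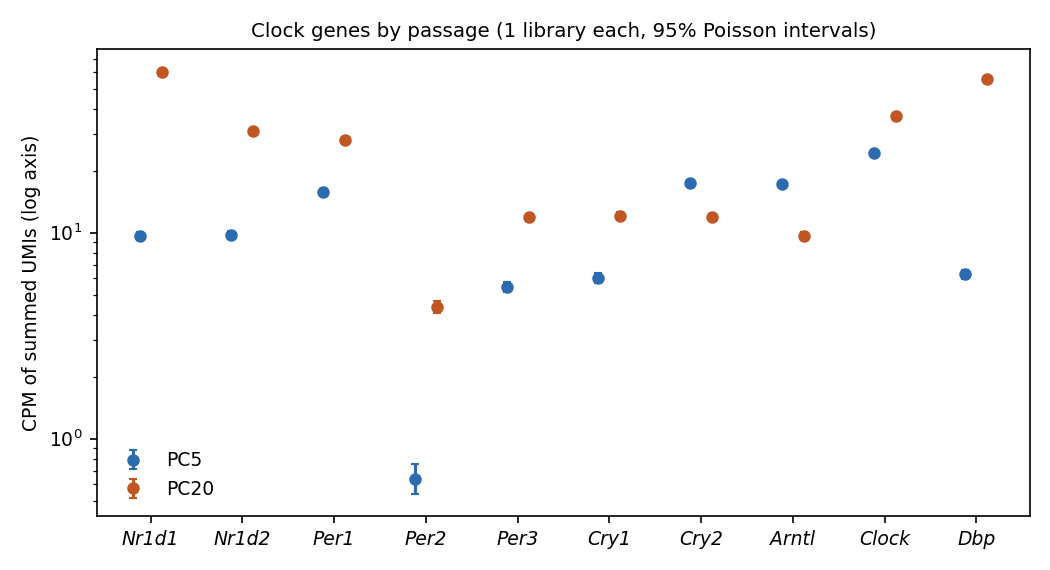
Levels of the 10 clock genes in the PC5 library (blue) and the PC20 library (orange), as CPM of UMIs summed over kept cells on a log axis, with 95% Poisson intervals that cover counting error only. *Dbp* goes from 6.29 to 55.8 CPM and *Nr1d1* from 9.63 to 60.2 CPM, while *Arntl* and *Cry2* are lower in PC20.

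A wider list held 25 further genes of the clock and its modifiers, 22 of which were detected in at least 5% of cells of either library. Past 2-fold, 7 of the 22 were higher in PC20 and 3 in PC5, beside 38.6% of all genes past it either way and 19.3% toward PC20. Those higher in PC20 included *Bhlhe41*, a repressor that binds E-boxes, at 6.20 CPM in PC5 against 74.1 CPM in PC20, *Ciart*, an inhibitor of CLOCK and BMAL1, at 1.81 and 14.9 CPM with a UMI in 1.70% of thinned PC5 cells and so under the same limit as *Per2*, and *Nfil3*, which competes with DBP for D-boxes, at 8.27 and 49.1 CPM. *Rora*, a nuclear receptor that activates *Arntl* through the element that REV-ERBs also bind, went the other way, with 39.5 CPM in PC5 against 10.2 CPM in PC20. *Arntl2*, the paralogue of *Arntl*, was also higher in PC5, at 31.0 CPM against 5.45 CPM.

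*Nr1d1* RNA was spread unevenly over the PC20 cells. Of the 4474 thinned PC20 cells, 2966 had 0 *Nr1d1* UMIs, 853 had 1, 291 had 2 and 364 had 3 or more, up to 18 in 1 cell. In PC5, 8047 of 8847 cells had 0, 717 had 1, 74 had 2, and 9 had 3, the most seen there. The variance over the mean of *Nr1d1* UMIs, which is 1 for counts that vary by sampling alone, was 3.05 in PC20 and 1.13 in PC5. This ratio moves toward 1 as the mean falls, so it does not compare spread between libraries or genes of unlike mean. The mean of *Nr1d1* was 0.70 UMIs per thinned cell in PC20 and 0.10 in PC5. The variance over the mean was 1.74 in PC20 and 1.16 in PC5 for *Dbp*, 1.35 and 1.06 for *Per1*, and 1.16 and 1.06 for *Nr1d2*. Over genes with a UMI in at least 5% of thinned cells, 8999 in PC20 and 9171 in PC5, the median of this ratio was 1.07 in both libraries. The 95th percentile of these genes was 1.74 in PC20 and 1.86 in PC5. *Nr1d1* in PC20 therefore lay above this 95th percentile and the other members at or under it, although *Per2* was seen in too few cells to be among these genes.

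**Figure D2:**
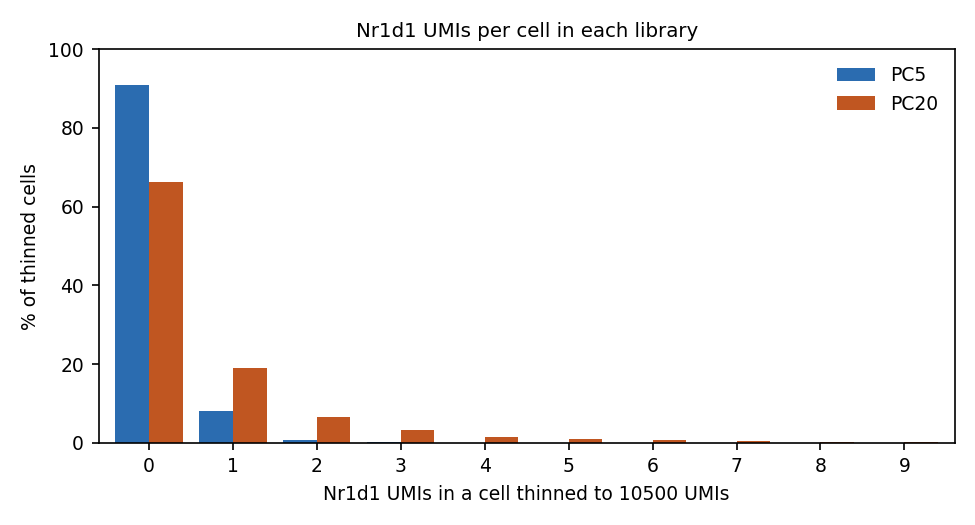
Share of thinned cells (%) by their number of *Nr1d1* UMIs, from 0 to 9, in PC5 (blue) and PC20 (orange). In PC20 66.3% of cells had 0 UMIs against 91.0% in PC5, and the few PC20 cells above 9 UMIs are not drawn.

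*Nr1d1*-high PC20 cells were the 364 cells (8.14%) with 3 or more *Nr1d1* UMIs, compared with the 4110 other PC20 cells. *Nr1d1* chose these cells, so its levels of 448 CPM in them and 33.3 CPM in the others only describe the choice. The cells just inside the limit were 148 with 3 UMIs and those just outside 291 with 2. *Per1*, *Dbp* and *Nr1d2* were higher in the *Nr1d1*-high cells, and *Arntl*, the *Cry* genes and *Per3* showed no difference past 1.5-fold. Of the 9 other clock genes, 7 were at 10 CPM or more with over 3 UMIs on each side, and 3 of these 7 were past 1.5-fold, all higher. Among all 7376 genes under the same rule, 16.9% were past 1.5-fold either way and 4.49% were past it upward. The median log2 ratio was 0.34 over the 7 clock genes and -0.13 over all genes.

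*Per1* was at 92.1 CPM in *Nr1d1*-high cells (82.7 to 102) and 24.8 CPM in the others (23.4 to 26.4), 3.71-fold higher (3.28 to 4.19), the 11th largest upward ratio of the 7376 genes. *Dbp* was at 148 CPM (136 to 161) and 52.8 CPM (50.7 to 55.0), 2.80-fold higher (2.55 to 3.07), and ranked 25. *Nr1d2* was at 56.8 CPM (49.5 to 64.9) and 30.4 CPM (28.8 to 32.1), 1.87-fold higher (1.61 to 2.16), and ranked 130. *Per1* UMIs were seen in 55.5% of the *Nr1d1*-high cells and 21.3% of the others, those of *Dbp* in 69.5% and 35.3%, and those of *Nr1d2* in 43.1% and 25.7%. For each of these genes the intervals of the high cells and the other cells were apart. Those intervals cover counting error only and leave out the spread between cells, so this is no test. Of these 3 genes only *Per1* held a listed motif, the E-box shown above, in the windows searched. *Cry1*, which was not raised, held an E-box and an E′-box, and a link between motifs and levels was not tested.

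*Clock* was at 46.6 CPM in *Nr1d1*-high cells and 36.8 CPM in the others, 1.27-fold higher (1.08 to 1.48), and so short of 1.5-fold. *Per3* stood at 12.04 CPM in the high cells against 11.8 CPM, which is 0.03 on the log2 scale (-0.44 to 0.47). *Cry2* was at 12.3 and 12.7 CPM, with -0.04 (-0.50 to 0.39). *Cry1* was at 8.90 and 12.4 CPM, with -0.48 (-1.03 to 0.02). *Arntl*, the gene that REV-ERBα represses, was at 10.5 and 9.52 CPM, with 0.14 (-0.37 to 0.61), and *Per2* at 5.49 and 3.99 CPM, with 0.46 (-0.27 to 1.12). Both were under 10 CPM over the library. These intervals span 0, and for *Arntl*, *Cry1* and *Per2* they do not exclude a 1.5-fold change. With high cells limited to 5%, those of *Per3* (-0.44, -1.16 to 0.20) and *Cry2* (-0.47, -1.17 to 0.16) did not either. *Per2*, *Cry1* and *Clock* depended on the processing as well. *Per2* had a log2 ratio of 0.99 (0.36 to 1.58) with another thinning seed and of 1.13 (0.27 to 1.90) in cells thinned to 5000 UMIs. *Cry1* was lower with an interval below 0 when the high cells were set against cells with 0 *Nr1d1* UMIs (-0.55, -1.10 to -0.05), and it passed 1.5-fold downward at -0.64 (-1.41 to 0.03) with high cells limited to 5% of the library. *Clock* fell to 0.17 (-0.07 to 0.41) with another thinning seed.

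Of the wider clock list, 7 of the 17 genes with enough UMIs were past 1.5-fold in *Nr1d1*-high PC20 cells, all higher. Of all genes under the same rule, 4.49% were past it upward and 16.9% either way. The E-box repressors *Bhlhe40* and *Bhlhe41* were 4.06-fold (310.1 against 76.4 CPM) and 3.47-fold (230.0 against 66.4 CPM) higher. *Rora* was 2.20-fold, *Nfil3* 2.18-fold, the D-box factor *Tef* 1.65-fold and the cell cycle kinase *Wee1* 1.65-fold higher. *Ciart* missed the mark with 1.47-fold (log2 0.56, 0.21 to 0.89).

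**Figure D3:**
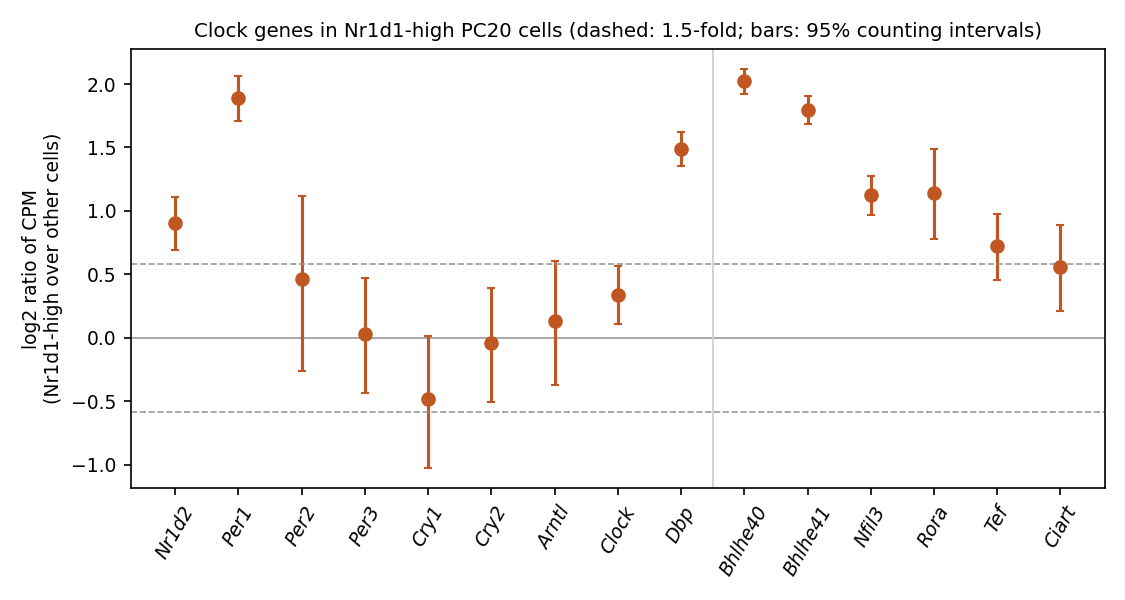
Log2 ratio of CPM in *Nr1d1*-high over other PC20 cells for the 9 other clock genes and 6 genes of the wider list (right of the line), with 95% counting intervals and dashed lines at 1.5-fold. *Per1*, *Dbp*, *Nr1d2*, *Bhlhe40*, *Bhlhe41*, *Nfil3*, *Rora* and *Tef* lie above the upper dashed line, and *Per3*, *Cry2* and *Arntl* lie near 0.

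*Nr1d1* overlaps *Thra*, a thyroid hormone receptor gene on the opposite strand. On GRCm38 (GENCODE M21) *Nr1d1* spans chr11:98767932-98775333 on the minus strand and *Thra* chr11:98740638-98769006 on the plus strand, sharing 1075 bases of which 263 are exonic in both. The strand setting of the counting was not given in the sources used here, and how UMIs from the shared bases were assigned was not checked. *Thra* was at 46.6 CPM in *Nr1d1*-high cells and 30.9 CPM in the others (log2 0.59, 0.36 to 0.82), and at 35.7 CPM in PC5 against 31.0 CPM in PC20.

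Other features of the cells moved with the choice, and their part in the result was not tested. Before thinning, *Nr1d1*-high cells had a median of 29062 UMIs against 35524, and a median of 1.40% mitochondrial UMIs against 2.09%. Cells with a *Mki67* or *Top2a* UMI made up 55.5% of the high cells and 57.7% of the others. Of 15 cycle genes, 2 were past 1.5-fold downward and 0 upward, beside 12.4% of all genes downward, and the list median was -0.28 beside -0.13 over all genes. Of 10 glucocorticoid receptor targets, 6 were past 1.5-fold, all higher, beside 4.49% of all genes upward, and the median log2 ratio of the 10 was 1.03. Among the 6 were *Tsc22d3* (325 against 85.8 CPM), *Klf9* (369 against 165 CPM) and *Zbtb16* (53.9 against 14.1 CPM). The other 4 stayed within 1.5-fold. They were *Fkbp5* (159 against 111 CPM), *Errfi1* (136 against 112 CPM), *Sgk1* (97.3 against 86.6 CPM) and *Dusp1*, which was lower (61.7 against 75.4 CPM). *Per1* itself is a known target of the glucocorticoid receptor. Of 7 NF-κB targets with enough UMIs of 14 listed, 3 were higher and 0 lower, led by the inhibitor *Nfkbia* with 436 against 64.1 CPM, and of 11 immediate-early genes 2 were higher and 1 lower. Marker lists of other cell types were not raised beyond their counting intervals. The summed smooth muscle markers were at 28.8 CPM in the high cells and 48.8 CPM in the others, fibroblast markers at 67.2 and 102.8, endothelial markers at 64.6 and 75.1, and astrocyte markers at 175 and 227. Each of these sums came almost wholly from 1 gene and does not speak for the other markers listed. In the high cells these genes were *Acta2* at 28.8 CPM, *Col3a1* at 66.7, *Flt1* at 64.4 and *Slc4a4* at 174.8. Oligodendrocyte markers were at 5.76 and 5.10, microglial markers at 1.31 and 0.76, PC markers at 8.11 and 8.99, and neuronal markers at 0 and 0.046.

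The 3 raised clock genes were also read by the number of *Nr1d1* UMIs below and within the high cells. They were picked as higher in cells with 3 or more *Nr1d1* UMIs, which are the upper 2 groups here. Their rise into those groups therefore repeats that choice and is no further support. From cells with 0 through 1, 2, and 3 to 4 up to 5 or more *Nr1d1* UMIs, *Per1* went from 20.9 through 30.7, 47.5 and 72.3 to 122 CPM. *Dbp* went from 45.0 through 66.9, 91.3 and 125 to 183 CPM, and *Nr1d2* from 27.4 through 36.4, 42.9 and 48.5 to 69.4 CPM. Each was higher at every step, although neighbouring intervals overlapped for *Nr1d2*. *Clock* took the values 37.7, 34.9, 32.7, 49.4 and 42.3 CPM, *Cry1* 13.04, 9.94, 13.7, 9.09 and 8.60 CPM, and *Arntl* 9.02, 10.7, 11.1, 9.52 and 11.9 CPM, with no steady order. The groups held 2966, 853, 291, 220 and 144 cells.

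**Figure D4:**
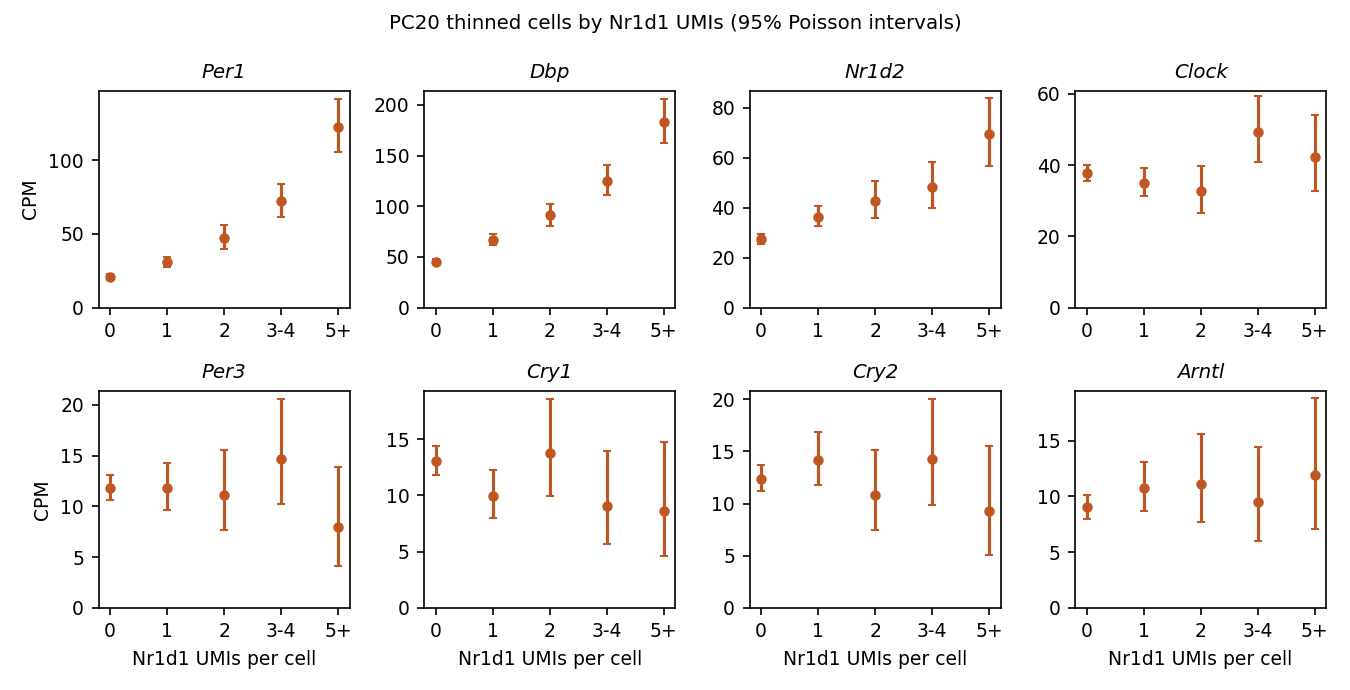
CPM of 8 clock genes in thinned PC20 cells grouped by *Nr1d1* UMIs per cell, each panel on its own linear axis from 0, with 95% Poisson intervals. *Per1* goes from 20.9 to 122 CPM, *Dbp* from 45.0 to 183 CPM and *Nr1d2* from 27.4 to 69.4 CPM, whereas *Clock*, *Per3*, *Cry1*, *Cry2* and *Arntl* show no steady order.

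The same limit of 3 UMIs gave only 9 cells in PC5, in which each other clock gene had 3 or fewer UMIs, so no clock gene could be counted and no ratio is given there. The libraries were therefore set side by side with lower limits, chosen after the data were seen. Cells with at least 1 *Nr1d1* UMI were compared with cells with 0, which gave 1508 against 2966 cells in PC20 and 800 against 8047 in PC5. In PC20, *Per1* was 2.33-fold higher (48.8 against 20.9 CPM, log2 1.22, 1.07 to 1.37), *Dbp* 2.03-fold (91.2 against 45.0 CPM, log2 1.02, 0.91 to 1.13) and *Nr1d2* 1.55-fold (42.6 against 27.4 CPM, log2 0.63, 0.49 to 0.78), and of all genes 2.13% were past 1.5-fold either way and 1.3% upward. In PC5, *Per1* was at 17.6 against 15.7 CPM (log2 0.17, -0.09 to 0.41), *Dbp* at 9.05 against 6.98 CPM (log2 0.37, 0.01 to 0.72) and *Nr1d2* at 11.4 against 9.93 CPM (log2 0.20, -0.12 to 0.51). *Cry1* was lower in PC20 (log2 -0.32, -0.59 to -0.06) and had an interval across 0 in PC5 (0.03, -0.41 to 0.45). In PC5, 5 of the other clock genes were at 10 CPM or more over the library with over 3 UMIs on each side. Of these 5, 0 were past 1.5-fold, where 0.146% of all genes under the same rule were. *Dbp* lay under 10 CPM in PC5 and was not among the 5.

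Cells with at least 1 UMI hold more *Nr1d1* UMIs per cell in PC20 than in PC5, so cells with exactly 1 were also compared with cells with 0. In PC20 *Per1* then had a log2 ratio of 0.55 (0.34 to 0.76), *Dbp* 0.57 (0.43 to 0.71) and *Nr1d2* 0.41 (0.22 to 0.59), none past 1.5-fold, whereas 0.271% of all genes were past it either way and 0.163% upward. In PC5 the values were 0.17 (-0.10 to 0.43), 0.28 (-0.11 to 0.66) and 0.27 (-0.06 to 0.58), with 0.133% of all genes past 1.5-fold. At this equal count the intervals of the libraries overlapped for all 3 genes, and the difference between the libraries was not tested. An equal count does not match the cells, since *Nr1d1* had a mean of 0.10 UMIs per thinned cell in PC5 and 0.70 in PC20. Its variance over the mean was 1.13 in PC5 and 3.05 in PC20. That ratio moves toward 1 as the mean falls, so these values do not compare the spread of *Nr1d1* between the libraries. The part of sparse counts in the lower PC5 ratios of both comparisons was not tested.

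**Figure D5:**
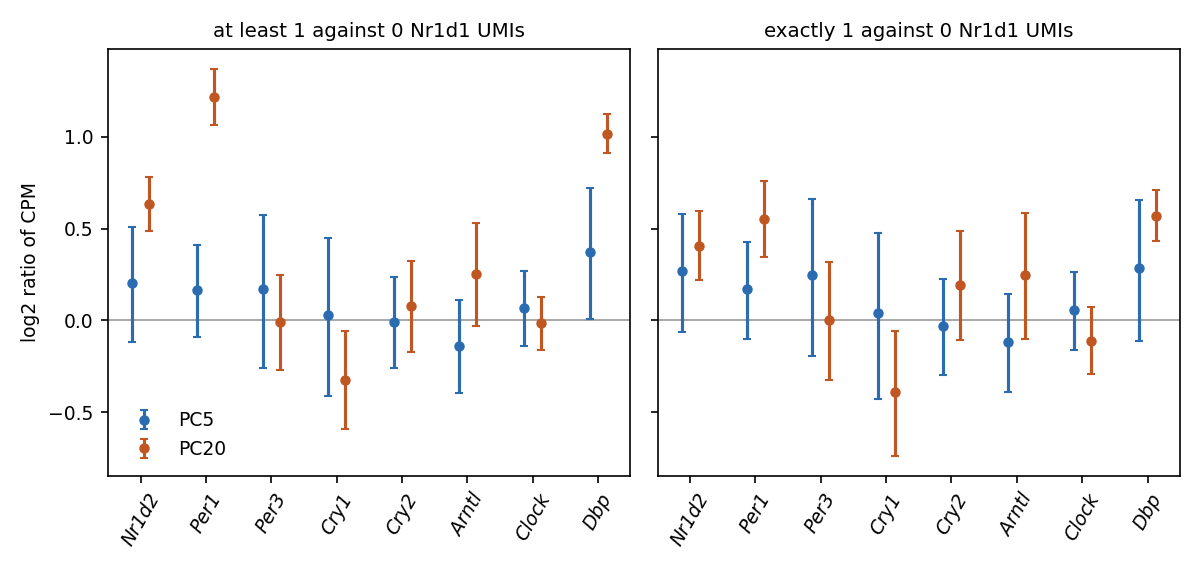
Log2 ratio of CPM between cells with at least 1 (left) or exactly 1 (right) *Nr1d1* UMI and cells with 0, in PC5 (blue) and PC20 (orange), with 95% counting intervals and without the scarce *Per2*. On the left *Per1* is at 1.22 in PC20 and 0.17 in PC5, and on the right at 0.55 and 0.17.

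Choosing the cells by *Dbp* in place of *Nr1d1*, which was added after the data were seen, gave 274 PC20 cells with 3 or more *Dbp* UMIs and 4200 others. As *Dbp* was already known to be higher in *Nr1d1*-high cells of this library, the *Nr1d1* value here reads the same link from the other gene. *Nr1d1* was at 206 against 58.0 CPM in these cells (3.56-fold, log2 1.83), *Per1* at 63.6 against 28.1 CPM (2.26-fold) and *Nr1d2* at 55.3 against 31.0 CPM (1.78-fold), all past 1.5-fold, as were 8.2% of all genes either way and 1.91% upward. *Per3* (log2 0.51, 0.04 to 0.94) and *Cry2* (0.50, 0.05 to 0.92) stood higher but short of 1.5-fold. *Dbp*-high cells had a *Mki67* or *Top2a* UMI in 42.0% against 58.5% of the others. In a direct split by these proliferation markers, *Dbp* was at 5.02 CPM in PC5 cells with a UMI of either and 8.35 CPM in those without (log2 -0.73, -0.997 to -0.48), and in PC20 at 48.8 and 76.6 CPM (-0.65, -0.76 to -0.54). *Per3* was likewise lower in PC20 cells with such a UMI, at 9.47 against 14.9 CPM (-0.66, -0.90 to -0.41), and in PC5 at 5.05 against 6.33 CPM (-0.33, -0.60 to -0.06). *Per1* showed log2 ratios of 0.07 in PC5 and 0.04 in PC20 in this split.

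Across thinned cells, taken as a description because cells share a library, the clock genes were nearly uncorrelated in PC5 and linked in part in PC20. Of the 45 pairs of clock genes, 0 had a Pearson correlation past 0.1 over the 8847 PC5 cells, the highest being 0.04 for *Nr1d2* and *Per3*. Over the 4474 PC20 cells 6 pairs were past 0.1, and these were all 6 pairs of *Nr1d1*, *Nr1d2*, *Per1* and *Dbp*. The highest were 0.30 for *Nr1d1* with *Per1* and 0.29 for *Nr1d1* with *Dbp*. The lowest was -0.03 for *Per3* with *Arntl*. *Nr1d1* had a mean of 0.70 UMIs per thinned cell in PC20 and 0.10 in PC5, and the part of this sparsity in the lower PC5 correlations was not tested.

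The 10 genes most like *Nr1d1* in PC20, among 7289 genes seen in at least 10% of thinned cells, were *Nfkbia* (Pearson 0.46 over 4474 cells), *Sox9* (0.45), *Mt1* (0.44), *Bhlhe40* (0.41), *Bhlhe41* (0.38), *Tsc22d3* (0.36), *H3f3b* (0.33), *Pnrc1* (0.31), *Mcl1* (0.31) and *Mt2* (0.31). *Per1* followed at rank 11 and *Dbp* at rank 14, and *Nr1d2* was at rank 97 with 0.15. The median over all these genes was -0.02. In PC5 the same 10 genes had correlations with *Nr1d1* between -0.03 and 0.02. The neural crest and cartilage factor *Sox9* was 3.75-fold and the metallothionein *Mt1* 2.81-fold higher in *Nr1d1*-high PC20 cells.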

How the data were processed

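Droplet 3′ libraries of cultured mouse brain PCs were analysed, 1 at passage 5 and 1 at passage 20, grouped as labelled. The authors mapped reads to mm10 with Cell Ranger (5.0 in the submitters' processing notes, 5.0.1 in the file headers) and deposited UMI counts per gene and barcode, without normalization. No per-sample column was left unmapped. Cells were filtered as in the study's methods. CPM was computed from summed UMIs, with exact Poisson intervals for levels, conditional binomial intervals for ratios and Clopper-Pearson intervals for shares, all covering counting error only. Thinning drew UMIs without replacement to 10500, set from the 10th percentile of depth in steps of 500. *Nr1d1*-high was the smallest limit, of at least 2 UMIs, met by at most 10% of thinned PC20 cells. Cells that share a library are no replicates, so no test was made, and no doublet caller was run. The clock genes, the gene lists and the comparisons were chosen with earlier results of these data known. Named are the 10 clock genes, wider clock genes detected in at least 5% of cells, the 10 genes most like *Nr1d1* by Pearson correlation of log1p UMIs, the 5 genes farthest in each direction in *Nr1d1*-high cells, and list members that a count needs. Some genes of the wider clock list are in its counts but are not reported here by name. Comparisons by cycle markers, by *Dbp* and with lower *Nr1d1* limits were added after the data were seen, except the cells without cycle markers. Gene positions came from GENCODE M21, which matched 31011 of 31053 identifiers, and promoters from RefSeq. Alternatives were other cell filters, thinning depths and seeds, totals, limits, means over cells, and cells without the top 5% by UMIs. Ratios were tested on simulated pooled counts with sampling error only, which held no spread between cells and no choice of cells by a gene. Python 3.11.15, numpy 2.4.6, scipy 1.17.1 and pandas 2.3.3 were used.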

Additional observations from a re-analysis of the deposited data

How the results depend on the processing

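No paired analysis was possible because each passage has 1 library and the result comes from no test. Of 77 alternative values for the passages, 61 stayed within the counting interval or, for counts, within 1.5-fold, 16 moved further and 0 changed sign. The number of clock genes past 2-fold was 5 or 6, but in cells without *Mki67* or *Top2a* UMIs the 6 held *Arntl*, toward PC5 at 1.11, in place of *Cry1*, and *Per3* lay between -1.36 and -1.005 (log2) and *Cry1* between -1.04 and -0.88. Of 133 alternative values for *Nr1d1*-high cells, 113 stayed within those limits and 18 moved further. The remaining 2 changed sign where the main interval excluded 0, the only case counted as a sign change. Both concerned *Clock* in PC20, which had a log2 ratio of -0.014 with at least 1 *Nr1d1* UMI against 0 and of -0.11 with exactly 1 against 0. Values of *Per2*, *Per3*, *Cry2* and *Arntl*, whose main intervals spanned 0, also fell on both sides of 0 without being counted as sign changes. The number of other clock genes past 1.5-fold in PC20 was 0 with exactly 1 UMI against 0 and otherwise 3 to 4, the fourth being *Cry1*, lower at -0.64 with high cells limited to 5%. In PC5, where none had enough UMIs to be counted, it was 2 under another thinning seed. The cause of these changes was not tested. *Per1* ranged from 0.55 to 2.14, *Dbp* from 0.57 to 1.72 and *Nr1d2* from 0.41 to 1.15 in PC20, with the lowest values in cells with exactly 1 UMI. *Per2* ranged from -0.15 to 1.13 and *Cry1* from -0.64 to -0.11. Depth limits *Per2*, *Arntl* and *Cry1*, which had 21, 40 and 34 UMIs in the *Nr1d1*-high PC20 cells.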

Other observations

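Outside the clock, the genes of 10 CPM or more that stood farthest up in *Nr1d1*-high PC20 cells were *Nfkbia*, *Arrdc3* (55.2 against 11.1 CPM, 4.98-fold), *Spsb1* (51.3 against 12.2 CPM, 4.20-fold), *Arrdc2* (72.5 against 17.4 CPM, 4.16-fold) and *Arl4d* (38.5 against 9.41 CPM, 4.09-fold). *Arrdc2* and *Arrdc3* encode arrestin domain proteins. Farthest down were *Ptx3*, a secreted pattern recognition protein, at 2.35 against 24.1 CPM (10.2-fold lower), *Pcyox1l* at 2.88 against 13.1 CPM, *2210011C24Rik* at 3.66 against 15.6 CPM, *2010315B03Rik* at 2.62 against 10.7 CPM, and *Chac1*, a glutathione-degrading enzyme induced in the integrated stress response, at 14.9 against 59.5 CPM (3.99-fold lower). These genes lead because they were ranked by this ratio. In PC5, cells with at least 1 against 0 *Nr1d1* UMIs had log2 ratios of 0.17 for *Nfkbia*, -0.04 for *Arrdc3*, -0.09 for *Arrdc2* and -0.71 for *Ptx3*.

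Between the passages, 3 of 10 glucocorticoid receptor targets were past 2-fold toward PC20 and 2 toward PC5, with a median log2 ratio of PC5 over PC20 of -0.19. Of 13 detected NF-κB targets 4 were past 2-fold toward PC20 and 5 toward PC5, and of 13 immediate-early genes 2 and 3. Over all genes tested, 38.6% were past 2-fold either way and 19.3% toward PC20.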
